A study of Mus musculus with 12 samples.

Results

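Described here are 9 mouse genes for enzymes that make or break down fructose, sorbitol and their phosphates. They are Khk, Tkfc and Glyctk, which carry fructose to trioses, Akr1b3, Akr1b8 and Sord, the enzymes of the polyol route and a close relative, and Mpi, Fbp1 and Fbp2, which act on fructose phosphates. They were taken by symbol from a table of read counts with 55421 genes, and all 9 were found. The table covered cultured microglia, the resident macrophages of the brain, that had been sorted from mouse brain and deprived of oxygen and glucose (OGD, a culture model of ischaemia) for 6 h. Of its 12 libraries, 6 were made straight after OGD and 6 after a further 24 h of recovery. At each time 3 came from mice with the Cx3cr1EGFP reporter alone, here WT, and 3 from Slc2a5-/-::Cx3cr1EGFP mice, here KO, which lack the fructose transporter GLUT5. Libraries made at once are called deprived WT or deprived KO below, and those made a day later recovered WT or recovered KO. All mice thus carried the reporter, all cells had been through OGD, and all samples were labelled male. The samples' age was given as postnatal day 35 to 40, and the extraction protocol named day 30 to 45. The isolation medium of every sample held 200 mM sorbitol and 5.5 mM glucose. Whether replicates are separate mice or cultures is not given, and p-values measure only how far these libraries spread, which may be technical. A culture without OGD was not analysed here.

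Fructose that enters a cell through GLUT5 is phosphorylated by ketohexokinase, the product of Khk, and is then split into trioses that join glycolysis. Cells can also make fructose themselves by the polyol route, in which aldose reductase turns glucose into sorbitol and sorbitol dehydrogenase turns sorbitol into fructose. The full breakdown route is best known from liver, kidney and gut, whereas in brain sorbitol and fructose are mostly known as products of high glucose. Hexokinase can phosphorylate fructose as well, which gives fructose 6-phosphate, the sugar on which glycolysis, gluconeogenesis and the mannose branch meet.

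Total counts lay between 31509859 and 45347118 per library after OGD and between 9885259 and 19915479 after recovery, so low genes had the wider error after recovery. Slc2a5 had 40 to 58 counts per deprived WT library, 4 to 17 per deprived KO library, 0 to 2 in recovered WT and 0 or 1 in recovered KO, so after recovery it gave no check of the genotype. All 8 microglia markers had reads in each group, with a summed level of 1959 to 2443 CPM (counts scaled to an equal library size) after OGD and 2436 to 3927 CPM after recovery. Csf1r lay between 647 and 996 CPM, whereas Tmem119, a marker of microglia in intact tissue, was at 0.0295 to 2.74 CPM. Astrocyte markers summed to 129 to 186 CPM in deprived WT, 55.0 to 76.3 in deprived KO, 168 to 192 in recovered WT and 81.8 to 121 in recovered KO. Xist, which is transcribed from the inactive X chromosome of female cells, had 4101 to 10232 counts in every KO and every deprived WT library and 0 to 3 in the 3 recovered WT libraries. After recovery, genotype and sex by this transcript therefore cannot be told apart, and in WT, recovery and sex cannot be told apart either. Replicate 1 of recovered WT was placed by its title and library name, since its treatment entry spoke of no recovery. Mitochondrial transcripts took 18.4% of its counts, against 4.20% to 10.5% elsewhere.

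With recovery, Mpi, Akr1b8 and Akr1b3 rose and Sord fell in both genotypes, while Khk and Tkfc did not pass the test. Most of the genes tested passed for recovery, 56.8% in WT and 59.0% in KO. Between the genotypes 0 of 7 enzymes passed right after OGD, where 7.49% of all genes tested did (edgeR's quasi-likelihood test, DESeq2 also 0). After recovery, where 22.2% of all genes passed, KO cells held more Akr1b8 and less Akr1b3 than WT cells. Fbp1 and Fbp2, with 10 and 11 counts over all 12 libraries, were too low to test, and the other 7 passed the filter on low counts. The 7 genes are plotted by library below, and levels are CPM throughout unless given per kilobase.

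**Figure D1:**
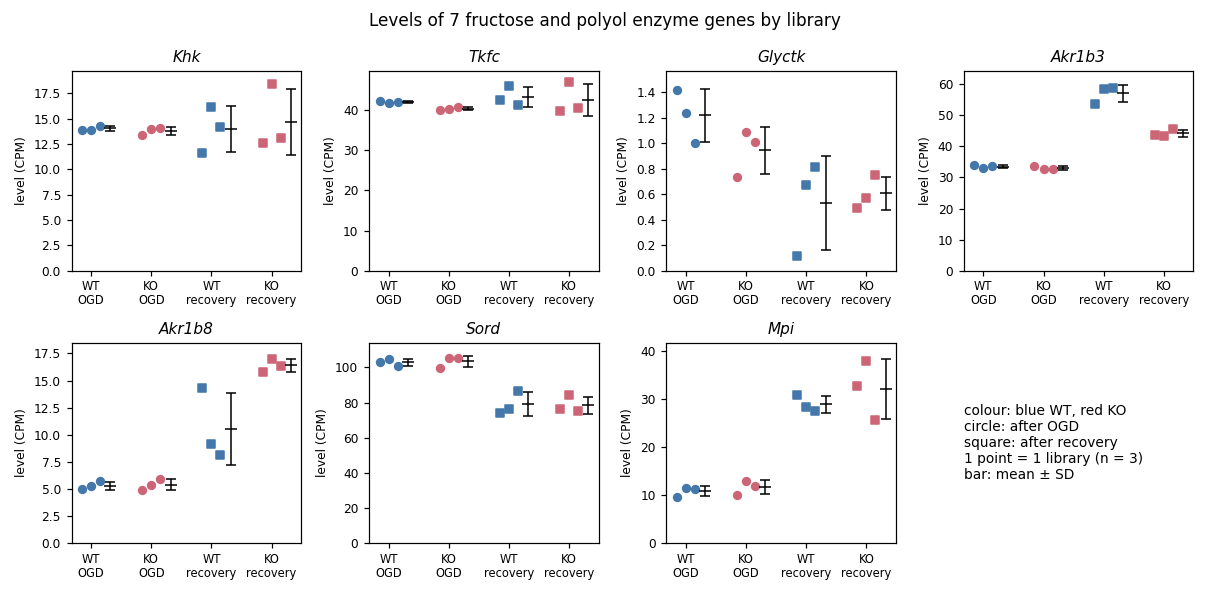
Level in CPM (y axis, from 0) of the 7 enzyme genes that passed the low-count filter, in the 4 groups (x axis). Each point is 1 library (n = 3 a group), blue for WT and red for KO, circles after OGD and squares after recovery, and the bar gives mean ± SD. Mpi lay at 9.56 to 12.9 CPM in the 6 OGD libraries and at 25.6 to 38.0 CPM in the 6 recovery libraries, and the genotypes stood apart for Akr1b3 and Akr1b8 after recovery.

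Khk (ENSMUSG00000029162.15, chromosome 5, 30921431 to 30931248, plus strand, GRCm38) encodes ketohexokinase, which commits fructose to its own breakdown route. It was present in every library, between 11.6 and 18.5 CPM. In replicates 1, 2 and 3 it was at 13.9, 13.9 and 14.3 CPM in deprived WT and at 13.4, 14.0 and 14.1 CPM in deprived KO. It was at 11.6, 16.2 and 14.2 CPM in recovered WT and at 12.6, 18.5 and 13.1 CPM in recovered KO. All 4 groups overlapped, and the recovery libraries were the more scattered, with a coefficient of variation of 16.2% in WT and 22.1% in KO against 1.61% and 2.76% after OGD. By edgeR's quasi-likelihood test the log2 difference of KO from WT was -0.03 after OGD (95% interval -0.31 to 0.25) and 0.04 after recovery (-0.27 to 0.35). The change with recovery was 0.01 in WT (-0.29 to 0.30) and 0.08 in KO (-0.21 to 0.37). All 4 intervals included 0. Without recovered KO replicates 1 and 3, whose muscle markers stood apart (below), the single library left lay 0.39 above deprived KO (adjusted p = 0.0482), on the assumption that it varies like the other groups.

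Tkfc (ENSMUSG00000034371.9, chromosome 19, 10587791 to 10605654, minus strand) encodes triokinase, which phosphorylates the glyceraldehyde that the splitting of fructose 1-phosphate leaves. Its values were the tightest of the set, at 42.3, 41.8 and 42.0 CPM in deprived WT and 40.1, 40.3 and 40.7 CPM in deprived KO. After recovery it was at 42.5, 46.0 and 41.3 CPM in WT and at 39.9, 46.9 and 40.5 CPM in KO. The deprived KO libraries all lay just below the deprived WT libraries, and the 2 recovery groups overlapped. The log2 difference of KO from WT after OGD was -0.06 (95% interval -0.22 to 0.10) in edgeR's quasi-likelihood test, with adjusted p = 0.765. Both recovery changes lay near 0 too, at 0.04 in WT (-0.13 to 0.21) and 0.07 in KO (-0.10 to 0.24). Tkfc is uncertain because 45.7% of its length overlaps Cyb561a3 on the other strand and 1.84% overlaps Ddb1, and reads were counted without regard to strand (below). The ratio of Tkfc to Khk counts within a library needs no scaling, and was 2.99 ± 0.05 (SD, n = 3) in deprived WT, 2.92 ± 0.06 in deprived KO, 3.13 ± 0.45 in recovered WT and 2.94 ± 0.34 in recovered KO.

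Glyctk (ENSMUSG00000020258.16, chromosome 9, 106152857 to 106158138, minus strand) encodes glycerate kinase, a side exit of the same route that handles glycerate made from glyceraldehyde. It was sparse, with 303 counts over all 12 libraries. Its counts were 58, 42 and 48 in deprived WT, 31, 33 and 37 in deprived KO, 1, 11 and 11 in recovered WT and 10, 7 and 14 in recovered KO. In CPM these are 1.22 ± 0.21, 0.943 ± 0.185, 0.533 ± 0.370 and 0.606 ± 0.130 (SD, n = 3). The 3 recovered WT libraries all lay below the 3 deprived WT libraries, whereas deprived KO and recovered KO overlapped. By edgeR's quasi-likelihood test it fell with recovery in WT by 1.06 on the log2 scale (SE 0.39, adjusted p = 0.0296), and in KO the value was -0.62 (adjusted p = 0.166). Leaving out a library ended the WT call for deprived WT replicates 1 (log2 -0.92, adjusted p = 0.0914) and 2 (-1.04, 0.0636) and for recovered WT replicates 1 (-0.72, 0.0911) and 2 (-1.22, 0.0539), as did the astrocyte marker level in the model (-0.91, 0.0704). Glyctk lies wholly inside D030055H07Rik on the other strand, which had 311 counts in all, so the 2 genes' reads cannot be separated here.

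The way reads were assigned bears on these levels. The table held 2356 genes of at least 200 counts that lie inside another gene, and in 2355 of these pairs the inner gene had no more counts than the outer one in any library. This included 953 of the 954 pairs that share no exon base and all 589 of those on opposite strands. Counts therefore covered whole gene bodies, introns included, from both strands, and a read over overlapping genes counted for each. Khk, Akr1b8, Sord, Mpi, Fbp1 and Fbp2 overlap no other annotated gene.

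Akr1b3 (ENSMUSG00000001642.18, chromosome 6, 34302434 to 34317478, minus strand) is the mouse aldose reductase, the first enzyme of the polyol route. It was at 34.1, 32.9 and 33.5 CPM in deprived WT and at 33.7, 32.7 and 32.7 CPM in deprived KO, so that the genotypes overlapped. The recovery values were 53.7, 58.4 and 58.9 CPM in WT and 43.5, 43.4 and 45.5 CPM in KO. Each recovery library lay above each OGD library, and each recovered KO library lay below each recovered WT library. By edgeR's quasi-likelihood test Akr1b3 rose with recovery 1.70-fold in WT (log2 0.77, SE 0.07, adjusted p = 2.98e-07) and 1.34-fold in KO (log2 0.42, SE 0.07, adjusted p = 1.13e-04). After recovery KO cells had less than WT cells by a log2 difference of -0.37 (SE 0.07, adjusted p = 0.00182), and this call held in all 22 alternative settings. With astrocyte markers as a covariate it was -0.44 (adjusted p = 0.0384), and with the libraries of highest mitochondrial share, 1 per genotype, left out it was -0.40 (adjusted p = 0.00401).

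What was counted as Akr1b3 is not beyond doubt. The gene lies inside the antisense gene Gm14546, whose exons share no base with its own and which had 12242 counts against 12223, a surplus of 0 to 5 per library. Gm14546 runs from 34290265 to 34324249, and its stretches outside Akr1b3 held only that surplus. Within Akr1b3, reads of the 2 genes cannot be told apart. Of the 50-base stretches of Akr1b3 transcripts, 13.6% also occur in other genes. Most of these are in Gm38056, which had 875 counts and spans Gm6644 on the other strand, itself with 872 counts. Gm12138 had 388 counts and Gm6736 190.

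Akr1b8 (ENSMUSG00000029762.6, chromosome 6, 34354119 to 34368463, plus strand) encodes a neighbouring aldo-keto reductase that is best known for reducing reactive aldehydes rather than glucose. It was at 4.98, 5.22 and 5.70 CPM in deprived WT and at 4.92, 5.39 and 5.88 CPM in deprived KO. A day later the values were 14.3, 9.16 and 8.14 CPM in WT and 15.8, 17.0 and 16.4 CPM in KO. The OGD groups overlapped, every recovery library lay above every OGD library, and the recovered KO libraries lay above all recovered WT libraries. By edgeR's quasi-likelihood test it rose with recovery 1.94-fold in WT (log2 0.96, SE 0.17, adjusted p = 1.74e-04) and 3.03-fold in KO (log2 1.60, SE 0.16, adjusted p = 7.03e-07). After recovery it was 1.59-fold higher in KO than in WT (log2 0.67, SE 0.17, adjusted p = 0.00946). That call was lost without recovered WT replicate 2 (log2 0.57, adjusted p = 0.0618) or replicate 3 (0.51, adjusted p = 0.0558), which leaves replicate 1, the library with the high mitochondrial share, as 1 of 2 WT libraries. With that one and recovered KO replicate 2 left out, the libraries richest in mitochondrial reads, the difference was 0.89 (adjusted p = 8.00e-04). A covariate for astrocyte markers gave 0.94 (adjusted p = 0.0412).

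Sord (ENSMUSG00000027227.7, chromosome 2, 122234749 to 122265340, plus strand) encodes sorbitol dehydrogenase, the enzyme that turns sorbitol into fructose. It had more reads than any other member in every library. It was at 103, 105 and 101 CPM in deprived WT and at 99.8, 106 and 105 CPM in deprived KO. After recovery it was at 74.1, 76.4 and 86.7 CPM in WT and at 76.3, 84.1 and 75.2 CPM in KO. The genotypes overlapped at both times, and all recovery libraries lay below all OGD libraries. In edgeR's quasi-likelihood test Sord fell with recovery by 0.38 on the log2 scale in WT (SE 0.08, adjusted p = 7.09e-04) and by 0.40 in KO (SE 0.08, adjusted p = 4.27e-04). The difference of KO from WT was 0.01 after OGD (95% interval -0.16 to 0.17) and -0.01 after recovery (-0.18 to 0.16). The copy Gm6652 on chromosome 1 shares 31.3% of the 50-base stretches of Sord transcripts and had 1254 counts, which is 4.05% of those of Sord.

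Ratios of counts to those of Akr1b3, which include any reads of Gm14546, were taken within each library, where scaling plays no part. Sord counts were 3.08 ± 0.10 times the Akr1b3 counts in deprived WT and 3.13 ± 0.15 times in deprived KO (SD, n = 3). After recovery they were 1.39 ± 0.08 times in WT and 1.78 ± 0.14 times in KO, with the 3 KO libraries above the 3 WT libraries. The ratio of Akr1b8 to Akr1b3 was 0.146, 0.159 and 0.170 in deprived WT and 0.146, 0.165 and 0.180 in deprived KO. After recovery it was 0.266, 0.157 and 0.138 in WT and 0.364, 0.391 and 0.360 in KO. The recovered KO libraries thus stood above the other 9. Of recovered WT, replicate 1 lay above the range of the OGD libraries, replicate 2 within it and replicate 3 just below it.

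**Figure D2:**
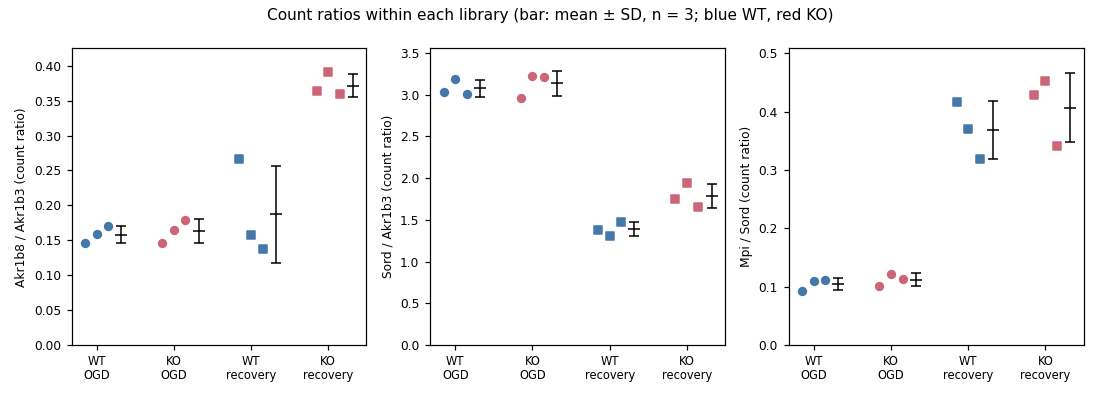
Ratio of read counts within each library (y axis, from 0) for Akr1b8 to Akr1b3, Sord to Akr1b3 and Mpi to Sord in the 4 groups (x axis). Points are libraries (n = 3), blue for WT and red for KO, and bars give mean ± SD. Akr1b8 to Akr1b3 was 0.360 to 0.391 in recovered KO and at most 0.266 elsewhere, and Mpi to Sord was 0.0926 to 0.122 after OGD and 0.318 to 0.451 after recovery.

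Mpi (ENSMUSG00000032306.14, chromosome 9, 57544256 to 57552763, minus strand) encodes mannose phosphate isomerase, which interconverts fructose 6-phosphate and mannose 6-phosphate at the entry to protein glycosylation. It was at 9.56, 11.4 and 11.3 CPM in deprived WT and at 10.1, 12.9 and 11.9 CPM in deprived KO. Recovery libraries held 30.8, 28.3 and 27.6 CPM in WT and 32.7, 38.0 and 25.6 CPM in KO. The genotypes overlapped at both times, and every recovery library lay far above every OGD library. In edgeR's quasi-likelihood test Mpi rose 2.68-fold in WT (log2 1.42, SE 0.14, adjusted p = 5.24e-07) and 2.75-fold in KO (log2 1.46, SE 0.14, adjusted p = 2.82e-07). The difference of KO from WT was 0.11 after OGD (95% interval -0.18 to 0.40) and 0.15 after recovery (-0.14 to 0.43). Mpi counts rose from 0.104 ± 0.010 of the Sord counts in deprived WT to 0.368 ± 0.049 in recovered WT, and from 0.112 ± 0.011 to 0.407 ± 0.059 in KO (SD, n = 3).

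Fbp1 (ENSMUSG00000069805.10, chromosome 13, 62864753 to 62888282, minus strand) and Fbp2 (ENSMUSG00000021456.8, chromosome 13, 62836877 to 62858422, minus strand) encode fructose 1,6-bisphosphatases, the liver and kidney form and the muscle form of an enzyme that turns glycolysis back towards glucose. Fbp1 had 0, 1 and 2 counts in deprived WT, none in deprived KO, 1, 1 and 3 in recovered WT and 0, 0 and 2 in recovered KO. From deprived WT to recovered WT its depth-adjusted ratio was 5.30, with a 95% interval from 1.03 to 34.1 that covers counting error only. Fbp2 had 0, 0 and 1 counts in deprived WT, none in deprived KO or recovered WT, and 6, 0 and 4 in recovered KO. Against a floor of 3 counts over a group, its depth-adjusted level in recovered KO was 2.52-fold that floor in recovered WT and 7.13-fold that in deprived KO. These ratios are not lower bounds, since they take the 10 counts of recovered KO as exact and replicate 2 had none. The 2 recovered KO libraries with Fbp2 reads, replicates 1 and 3, also held 99.2 and 105 CPM of 10 skeletal muscle markers in sum, against 11.9 CPM in replicate 2. In the other 3 groups that sum lay between 5.82 and 10.9 CPM. The muscle actin Acta1 was at 37.6, 0.980 and 36.4 CPM in recovered KO replicates 1, 2 and 3, and the part of muscle transcripts in the Fbp2 reads was not tested.

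Set against all 18842 genes tested, the comparisons of KO with WT gave these counts. Right after OGD 0 of the 7 enzymes passed edgeR's quasi-likelihood test at an adjusted p below 0.05, where 7.49% of all genes did. DESeq2 also called 0, and 0 of the 7 had an unadjusted p below 0.05. The median log2 difference of the 7 was -0.02, and of all genes -0.01. After recovery 2 of 7 passed, Akr1b8 higher and Akr1b3 lower, where 22.2% of all genes did. The medians were 0.04 for the enzymes and 0.01 for all genes. Astrocyte markers, of which 10 of 10 tested were lower in KO after OGD and 7 after recovery, moved with the genotype, and their part in these results was not tested beyond the covariate values above.

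For recovery against OGD, 5 of 7 enzymes passed in WT, where 56.8% of all genes did, and 4 of 7 in KO, where 59.0% did. In each genotype 3 were higher, and 2 in WT and 1 in KO were lower. The medians of the 7 were 0.04 in WT and 0.08 in KO, against -0.03 and 0.00 for all genes. The shares called are thus near those of all genes. With recovery, markers of other cells moved too, and fewer cells of a type and less RNA per cell cannot be told apart in such libraries. Oligodendrocyte markers summed to 61.2 to 83.0 CPM after OGD and 150 to 244 CPM after recovery, and monocyte markers to 25.3 to 31.7 and 231 to 308 CPM. Endothelial and mural markers summed to 10.7 to 13.6 and 66.1 to 134 CPM, mostly through Flt1. Its means were 6.96 and 7.57 CPM in deprived WT and KO and 68.8 and 121 CPM in recovered WT and KO. Of the 6 such markers tested, 1 passed as higher with recovery in WT and 3 in KO. None passed as lower, and the list medians were -0.21 and 1.45 on the log2 scale. Neuron markers lay at 7.89 to 36.4 and 16.5 to 94.1 CPM and border macrophage markers at 740 to 837 and 832 to 1332 CPM. Markers of liver, kidney and gut, where fructose breakdown is best known, summed to 16.8 CPM in recovered KO replicate 1. In the other libraries that sum lay between 0.333 and 2.97 CPM. The part of any of these in the changes of the enzymes was not tested. The recovery change in KO and the comparison with WT after recovery share the recovered KO libraries, and so are not independent of each other.

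**Figure D3:**
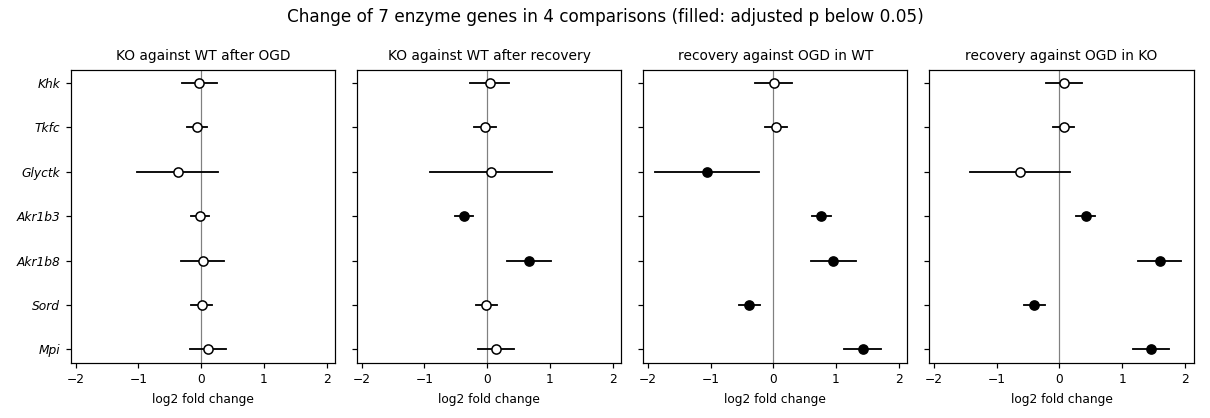
Log2 fold change (x axis) of the 7 tested enzyme genes (y axis) in 4 comparisons from edgeR's quasi-likelihood fit to 12 libraries, with 95% intervals as bars. Filled points had an adjusted p below 0.05: none for KO against WT after OGD, Akr1b3 and Akr1b8 after recovery, and Akr1b3, Akr1b8, Sord and Mpi in both recovery comparisons with Glyctk in WT alone.

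Whether recovery moved the enzymes differently in the 2 genotypes was tested by the interaction, which subtracts the change in WT from the change in KO. It includes the recovered WT libraries, the only ones almost without Xist reads. A dependence on genotype and one on sex by this transcript therefore cannot be told apart in it. None of the 7 passed edgeR's quasi-likelihood test at an adjusted p below 0.05, where 5.25% of all genes did. Of the 7, 2 had an unadjusted p below 0.05, and DESeq2 called 1. Akr1b3 had an interaction of -0.35 on the log2 scale (SE 0.10, adjusted p = 0.0531), and it passed in 6 of 21 alternatives, with adjusted p values from 0.00363 to 0.183. Akr1b8 had 0.64 (SE 0.23, adjusted p = 0.123), and it passed in 2 of 21, with values from 0.0112 to 0.335. Mpi, Sord, Khk and Tkfc had interactions between -0.02 and 0.07, with 95% intervals that reached at most -0.37 and 0.48. Glyctk had 0.43, with an interval from -0.74 to 1.60.

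Levels were put in order by CPM per kilobase of exon. Sord led in every group, at 43.8 ± 0.8 in deprived WT, 44.0 ± 1.4 in deprived KO, 33.6 ± 2.8 in recovered WT and 33.4 ± 2.1 in recovered KO (SD, n = 3), and its lowest library exceeded the highest of the next gene in each group. After OGD, Tkfc with 9.11 and Khk with 7.82 followed in WT, then Akr1b3 with 4.00, and none of these neighbours overlapped. Akr1b8 and Mpi overlapped each other after OGD, with 3.53 and 3.42 in WT, and in KO Mpi overlapped Akr1b3 as well. After recovery Tkfc, Mpi, Khk, Akr1b8 and Akr1b3 formed a group without gaps between neighbours in WT, from 9.37 down to 6.79. In recovered KO Akr1b8 with 10.9 and Mpi with 10.2 came directly after Sord, and they overlapped each other. Glyctk, at 0.126 to 0.288 in the group means, and the Fbp genes ended each order. Since introns were counted, the order depends on the length used. Per kilobase of gene body Sord still led after OGD, but Akr1b3 did in recovered WT with 3.79 and Mpi in recovered KO with 3.77. On that measure Akr1b8, with a mean of 1.14 in recovered KO, came below Mpi, Akr1b3, Sord, Tkfc and Khk there. The mean of Akr1b3 then also lay above that of Khk after OGD, in WT and in KO. The places of Akr1b8, Akr1b3 and Khk in the order by exon length therefore did not hold for both lengths.

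Akr1b8 has close relatives beside it on chromosome 6, and these followed it in part. Akr1b10 was at 23.5 ± 0.4 CPM in deprived WT, 23.0 ± 1.3 in deprived KO, 45.3 ± 2.5 in recovered WT and 53.4 ± 5.8 in recovered KO (SD, n = 3). In edgeR's quasi-likelihood test it rose with recovery by a log2 change of 0.95 in WT (adjusted p = 4.04e-07) and 1.22 in KO (adjusted p = 2.30e-08), and its difference of KO from WT after recovery missed the threshold of that test (0.24, adjusted p = 0.0704). Akr1b7, low throughout at 0.149 to 1.30 CPM, fell with recovery, with log2 changes of -1.21 in WT (adjusted p = 0.0109) and -2.24 in KO (adjusted p = 1.59e-04). Only 2.90% of the 50-base stretches of Akr1b8 transcripts occur in another gene, mostly Akr1b10.

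**Figure D4:**
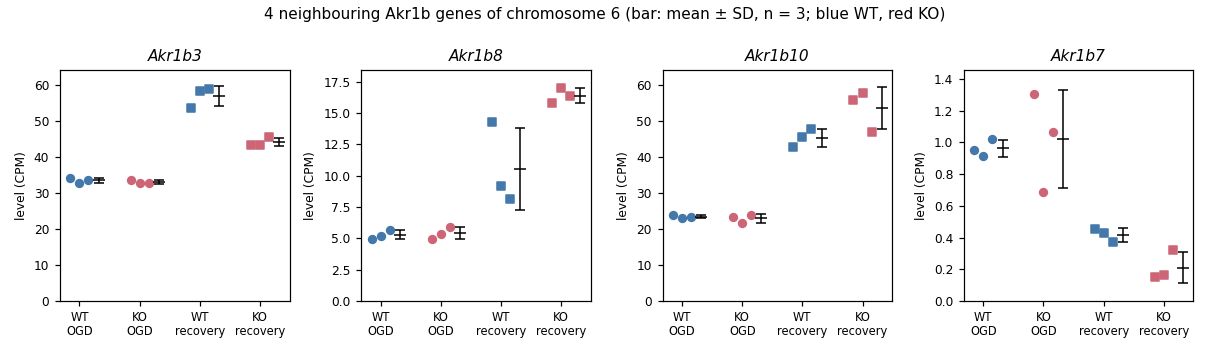
Level in CPM (y axis, from 0, scale set for each gene) of the neighbouring Akr1b genes in the 4 groups (x axis). Points are libraries (n = 3), blue for WT and red for KO, and bars give mean ± SD. Akr1b3, Akr1b8 and Akr1b10 were higher in all recovery libraries than in all OGD libraries, and Akr1b7, at most 1.30 CPM, was lower.

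Around the enzymes, 7 lists of pathway genes were counted by the same test. Of 19 genes for the entry and fate of fructose, 16 were tested. With recovery 3 were higher and 8 lower in WT, and 4 higher and 7 lower in KO, with a list median of -0.25 and -0.14 on the log2 scale. Over all genes tested 56.8% passed in WT, 5068 higher and 5633 lower, and 59.0% in KO, 5527 higher and 5586 lower, with medians of -0.03 and 0.00. Hk2, a hexokinase that also accepts fructose, fell by 1.65 in WT (adjusted p = 1.23e-09) and by 2.11 in KO (adjusted p = 9.84e-11), and Slc2a5 itself fell by 3.83 in WT (adjusted p = 1.31e-04). Aldoa, the aldolase of most tissues, had values of -0.01 and -0.09 (adjusted p = 0.941 and 0.470). The sugar transporters Slc2a2 and Slc2a7 had 7 and 17 counts over all 12 libraries. Between the genotypes 1 gene was higher and 3 lower after OGD, where 7.49% of all genes passed. Of these 4, Slc2a5 (-1.75, adjusted p = 0.0108), the astrocyte marker Aldoc (-0.45, adjusted p = 0.00852) and Aldh1a1 (-3.35, adjusted p = 2.24e-05) were the lower ones and Hk2 the higher one (0.35, adjusted p = 0.0197).

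Of 13 tested genes for other aldo-keto reductases and enzymes of sugar alcohols, 8 rose and 2 fell with recovery in WT, and 7 rose and 2 fell in KO, with list medians of 0.54 and 0.66, where 56.8% and 59.0% of all genes passed in either direction, with medians of -0.03 and 0.00. Akr1a1, an aldehyde reductase, rose by 0.54 in WT (adjusted p = 6.11e-04) and 0.66 in KO (adjusted p = 9.77e-05). Dcxr, which reduces xylulose, did not pass (0.37 and 0.39, adjusted p = 0.0977 and 0.0759). Of these 13, 2 were higher and none lower in KO than in WT after recovery, and 1 was lower after OGD, where 22.2% and 7.49% of all genes passed. Of 18 genes for mannose and hexosamine precursors of glycans, the branch that Mpi feeds, 2 rose and 7 fell in WT, and 4 rose and 6 fell in KO, against the same shares of all genes. Pmm2, the phosphomannomutase that acts next after Mpi, rose by 0.57 in WT (adjusted p = 7.92e-05) and 0.54 in KO (adjusted p = 1.27e-04), and Gfpt1, which draws fructose 6-phosphate into hexosamines, fell by 1.45 (adjusted p = 8.64e-08) and by 1.67 (adjusted p = 1.58e-08).

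The counts of the other lists stand against the 56.8% of all genes that passed with recovery in WT and the 59.0% in KO. Of 10 tested genes of gluconeogenesis, 4 rose and 3 fell with recovery in WT and 2 rose and 3 fell in KO, and Pck1 and G6pc had 6 and 8 counts in all 12 libraries. Of 10 genes that set fructose 2,6-bisphosphate or sugar-sensing transcription, 4 rose and 3 fell in WT and 6 rose and 3 fell in KO. Txnip, a target of the glucose-sensing factors, rose by 4.05 in WT (adjusted p = 9.50e-14) and 4.53 in KO (adjusted p = 6.38e-14). Of 6 osmotic genes of NFAT5, the factor known to drive aldose reductase under high salt, 1 rose and 3 fell in WT and 1 rose and 4 fell in KO. The one that rose was the betaine transporter Slc6a12, by 3.22 (adjusted p = 2.88e-10) and 4.36 (adjusted p = 1.55e-11). Of 13 NRF2 targets, a group to which AKR genes are often counted, 5 rose and 4 fell in WT and 3 rose and 9 fell in KO. After recovery, where 22.2% of all genes passed, 5 of these 13 were lower and none higher in KO than in WT, with Me1 at -1.20 (adjusted p = 4.49e-05), and Akr1b8, as above, was higher. Against the same 22.2%, the counts higher and lower in KO were 1 and 2 of 16 for the fructose list, 1 and 1 of 10 for gluconeogenesis, 2 and 0 of 10 for sugar sensing, 2 and 3 of 18 for glycan precursors and 2 and 0 of 6 for NFAT5. After OGD, where 7.49% of all genes passed, they were 0 and 0 of 10, 0 and 1 of 10, 0 and 1 of 18, 0 and 1 of 6, and 0 and 0 of 13 for gluconeogenesis, sugar sensing, glycan precursors, NFAT5 and NRF2.

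Promoters are shown for Akr1b8, Mpi and Sord, the members that moved with recovery in both genotypes and have an entry in RefSeq's table for GRCm38.p6. Each window runs from 250 bases before to 50 bases after the gene's start, 5′ to 3′ on the gene's strand. A match to a motif would be in capitals, and there is none.
Akr1b8, chr6:34353896-34354195, strand +: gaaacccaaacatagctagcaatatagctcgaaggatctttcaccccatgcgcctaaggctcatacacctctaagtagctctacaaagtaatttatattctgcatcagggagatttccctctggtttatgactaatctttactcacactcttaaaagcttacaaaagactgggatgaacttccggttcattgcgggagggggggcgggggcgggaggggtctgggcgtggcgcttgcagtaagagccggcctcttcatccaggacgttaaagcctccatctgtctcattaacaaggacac
Mpi, chr9:57552703-57553002, strand -: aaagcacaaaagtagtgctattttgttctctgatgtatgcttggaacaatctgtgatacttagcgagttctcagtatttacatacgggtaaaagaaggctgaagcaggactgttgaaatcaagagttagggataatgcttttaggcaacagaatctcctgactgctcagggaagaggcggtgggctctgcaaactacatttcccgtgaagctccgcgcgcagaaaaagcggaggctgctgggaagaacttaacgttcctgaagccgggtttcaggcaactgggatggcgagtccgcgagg
Sord, chr2:122234589-122234888, strand +: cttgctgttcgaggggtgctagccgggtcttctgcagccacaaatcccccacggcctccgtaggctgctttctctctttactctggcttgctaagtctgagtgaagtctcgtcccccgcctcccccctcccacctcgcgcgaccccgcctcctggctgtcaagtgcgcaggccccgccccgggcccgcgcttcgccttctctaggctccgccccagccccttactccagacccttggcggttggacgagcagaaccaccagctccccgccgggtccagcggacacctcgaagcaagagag

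The 3 windows hold 66.7% G and C for Sord, 49% for Akr1b8 and 48.3% for Mpi, and a link of this share to their changes was not tested. Both strands of 8 members' promoters were searched for ACGTG, the core bound by hypoxia-inducible factors, for TGACNNNGC, the core bound by NRF2, and for TGGAAA, the core bound by NFAT5. Of 32851 promoters of this length, 19.6%, 12.4% and 21.4% hold a match. Of the 8, Khk and Fbp2 held ACGTG, in each case as 2 overlapping matches on opposite strands, Tkfc, Fbp1 and Fbp2 held the NRF2 core, and Tkfc held the NFAT5 core. A match is a description of the letters only.

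Correlations over the 12 libraries are given for the enzymes that passed with recovery in both genotypes and for Khk and Tkfc, which passed in neither. As the enzymes were set apart by their recovery change in these same libraries, that choice largely fixed the values. Pearson's r of log2 levels was 0.92 between Akr1b8 and Mpi, 0.84 between Akr1b3 and Mpi and 0.66 between Akr1b3 and Akr1b8. With Sord, r was -0.90 for Mpi, -0.90 for Akr1b8 and -0.85 for Akr1b3. Khk and Tkfc had r = 0.77 with each other. Khk had r from 0.02 to 0.16 with Akr1b3, Akr1b8, Sord and Mpi, and Tkfc had r from -0.29 to 0.43 with these. These values are descriptions, since the libraries share their group, depth and time point. Among all genes tested, the levels most like that of Mpi were those of Hdgf (r = 0.992), Btk (0.989) and Ap1s1 (0.989). For Akr1b8 they were Bcl2l1 (r = 0.986), Rpn1 (0.985) and Lpl (0.984). For Akr1b3 they were Gm14546 (r = 1.00), which counts the same reads, and then Zcwpw1 (0.992) and Ear2 (0.992).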

How the data were processed

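The authors deposited whole-number read counts per gene and library, not normalized, and all 12 columns were used. Per the labels, libraries were made with a stranded total RNA kit, although polyA RNA was given as the molecule. HISAT2, featureCounts and GRCm38 were named in the submitters' processing notes, and versions, annotation and counting options are not given in the sources used here. Identifiers were matched to GENCODE M21 (55240 of 55421). Samples were grouped by title. In R 4.3.3, edgeR 4.0.16 kept 18842 genes (filterByExpr), scaled libraries by TMM and fitted robust quasi-likelihood models (glmQLFit, glmQLFTest) to all libraries with 1 mean per group. Adjusted p-values are Benjamini-Hochberg values over those genes, with 0.05 as the threshold for a call. SE is the log2 fold change over the root of F. Replicates differed by more than sampling noise (chi-square per degree of freedom 6.66 to 60.2). Intervals of counts cover counting error only, and ratios to a floor leave out the error of the higher count.

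The 9 genes, 7 pathway lists, 9 marker lists and the rule for named genes (all members, list genes a result turns on, and the 3 genes most correlated with each of 3 members) were chosen with earlier results of these data known. For Aldoa, the identifier with 360527 counts was used and one with 111 left out. One listed gene is not reported here. The steps were checked on simulated counts. Alternatives were DESeq2 1.42.0, its size factors in edgeR, no filter or 1 CPM in 6 libraries, a replicate block, libraries left out, counts thinned to 9885259, an astrocyte marker covariate, and the 6 compared libraries alone.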

Additional observations from a re-analysis of the deposited data

How the results depend on the processing

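Over 22 alternatives and 758 values of single enzymes, 741 kept their direction where called and their side of the threshold, 8 calls were lost, 9 were gained and no called value changed sign. Leaving out single libraries, the number of enzymes called was 0 throughout for KO against WT after OGD, 1 to 2 after recovery (2 with all libraries), 4 to 5 for recovery in WT, 4 for recovery in KO and 0 to 2 for the interaction. The interaction had 1 call with DESeq2, with DESeq2's size factors in edgeR and with the stricter filter (Akr1b3 each time), and 2 (Akr1b3 and Akr1b8) with the 2 libraries richest in mitochondrial reads left out. The call of Glyctk in WT had adjusted p = 0.110 without those 2 libraries, where its value was -0.70. Same-numbered replicates did not deviate together (r from -0.217 to 0.138). The replicate block changed no call of an enzyme, and over all genes it called 1179 after OGD and 657 for the interaction, against 1411 and 989 without it. Over all genes, KO against WT after OGD gave 37 calls with the astrocyte covariate, 672 at equal depth, 2148 with no filter and 524 to 1742 without single libraries, and DESeq2 split its calls into 506 higher and 1270 lower against 182 and 1229. KO against WT after recovery gave 4175, and 1959 with the covariate and 2653 without recovered WT replicate 2. Recovery in KO gave 11113, and 6732 with the covariate. The interaction gave 579 at equal depth, 1980 with no filter, 1517 with DESeq2 and 479 to 1770 without single libraries. The causes were not tested. Glyctk, Fbp1 and Fbp2 had 303, 10 and 11 counts over all 12 libraries, which limits the precision of their values.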
